A study of Mus musculus with 2 samples.

Results

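The 10 genes described here run the kidney's handling of phosphate and its vitamin D and klotho axis. They are the phosphate carrier genes Slc34a1, Slc34a3, Slc20a1 and Slc20a2, the scaffold gene Slc9a3r1, the receptor genes Pth1r and Vdr, the co-receptor gene Kl, and the vitamin D enzyme genes Cyp27b1 and Cyp24a1. They were chosen by name, and their probes were those non-control probes whose RefSeq accession belongs to 1 of them. All 10 genes were on the array, with 13 probes, out of 39429 non-control probes in all. All 13 probes lay well above background on both arrays, so all 10 genes were among the 15975 genes measured on both.

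Glomerular regions were dissected from the kidneys of male C57BL/6J-background mice made diabetic, and their RNA was hybridised to a 1-colour Agilent array. TG+STZ stands for mice with a transgene that overexpresses the deacetylase Sirt1, per their label, and WT+STZ for wild-type mice. Both groups received streptozotocin (STZ), a toxin of the insulin-producing beta cells, in 100 mmol/l citrate buffer at 8 weeks of age, and were killed at 32 weeks. A single array stands for each group, which leaves every difference without replicates and without a test. The labels do not say whether several mice were pooled. The labels do not name the promoter of the transgene. From general knowledge of this mouse line, it is the promoter of Slc34a1 (also called Npt2), which is active in the proximal tubule. Neither array was nondiabetic, so the values say nothing about diabetes itself.

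Phosphate filtered by the glomerulus is taken back in the proximal tubule through sodium-coupled carriers of the SLC34 family in the brush border. Parathyroid hormone, through its receptor, and FGF23, a bone hormone that needs klotho as co-receptor, remove these carriers from the membrane. The same cells convert vitamin D into its active hormone calcitriol with the enzyme of Cyp27b1 and destroy it with the enzyme of Cyp24a1. Parathyroid hormone favours the first enzyme, and FGF23 and calcitriol favour the other. Calcitriol acts through the vitamin D receptor, a nuclear receptor that pairs with retinoid X receptors.

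Signal is given in intensity units of the scanner software. A difference is the log2 signal on the TG+STZ array minus that on the WT+STZ array, after each array was scaled by the 75th percentile of its non-control spots, which was 2042 units in TG+STZ and 1933 in WT+STZ. The error printed with a difference is the scanner software's own error of both spots. It covers a single hybridisation and not the spread between mice, and it was 0.20 for 12 of the 13 probes. This near-constant error was larger than the scatter of repeated spots, whose differences had a median SD of 0.03. Lying within 1 error of 0 was common, at 77.3% of all measured probes. Of the non-control spots, 76.3% were well above background in TG+STZ and 75.04% in WT+STZ, and no spot was saturated. Over all measured genes the median difference was 0.00 and the SD 0.26, with 95% of genes between -0.52 and 0.49. Sirt1 itself differed by 0.10 ± 0.20, and whether its probe also reads the transgene was not tested. Signals of different probes are not set against each other, since each probe has its own efficiency.

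No gene of the group was 1.5-fold apart between the arrays. The genes of both vitamin D enzymes had the highest signal in TG+STZ relative to WT+STZ, at 1.37-fold each. Both SLC20 carrier genes were slightly higher in TG+STZ, Slc20a2 by more than 1 scanner error and Slc20a1 by less. The SLC34 carriers, klotho, both receptors and the scaffold also lay within 1 scanner error of 0. Of all measured genes, TG+STZ was past 1.5-fold upward in 1.75% and downward in 1.91%, and 0 of 10 lies near that background. At 2-fold, again 0 of 10 in both directions, the shares of all genes were 0.52% higher and 0.469% lower. The median over the 10 genes was 0.03, with 6 higher and 4 lower in TG+STZ, beside the median of 0.00 over all genes. A median this close to 0 does not set the group apart from other genes.

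**Figure D1:**
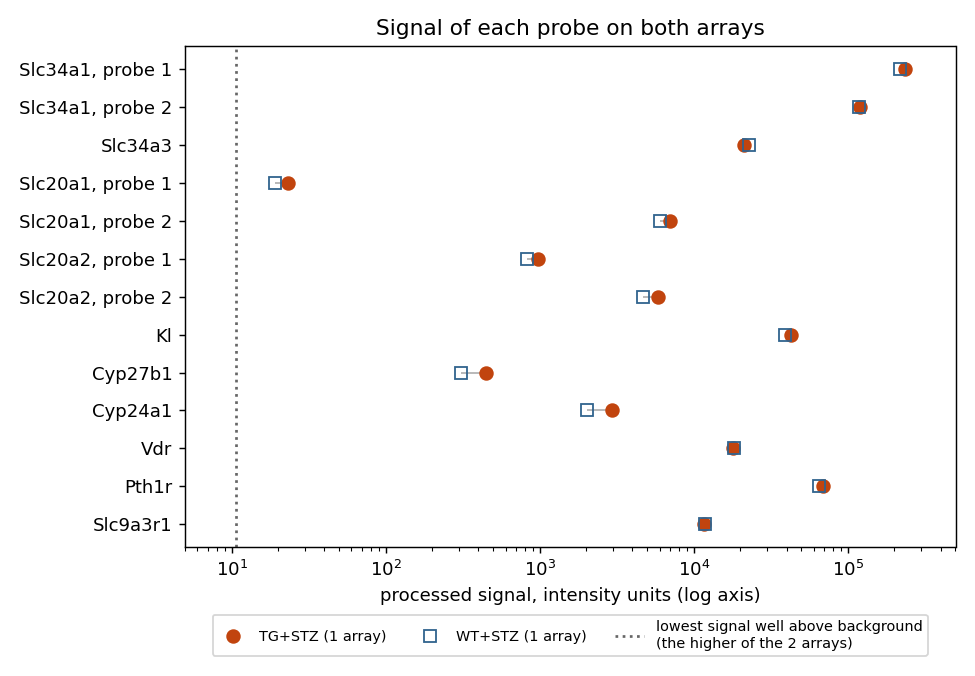
Processed signal of each of the 13 probes (intensity units, log axis) on the TG+STZ array (filled circles) and the WT+STZ array (open squares), 1 array each. The dotted line is the lowest signal counted as well above background, 10.6 units. The symbols of Cyp27b1 and Cyp24a1 stand visibly apart, while those of Slc34a1, Vdr and Slc9a3r1 overlap. Horizontal distances between different probes are not differences in transcript level.

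Slc34a1 encodes NaPi-IIa, the main phosphate carrier of the mouse proximal tubule. Its first probe (A_51_P498442) read 233316 units in TG+STZ and 218601 in WT+STZ, and its other probe (A_55_P1991891) read 119496 in TG+STZ and 117844 in WT+STZ. The unscaled signals were thus slightly higher on the TG+STZ array for both probes. After scaling the probes lay on opposite sides of 0, at 0.02 ± 0.20 and -0.06 ± 0.20, and the gene mean was -0.02 ± 0.14. The Slc34a1 transcript therefore did not differ between the arrays by more than the scanner error. With 1 array a group this does not show that its level is the same in both genotypes.

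The region around the start of Slc34a1 is shown because the promoter of this gene is the one understood to drive the transgene. Cyp27b1 and Cyp24a1 had the differences furthest from 0, and the window of Cyp27b1 is shown with that of Vdr, the receptor of its product. Cyp24a1 had no entry in the table of promoters. The sequences are from RefSeq (GRCm38.p6), from 250 bases before to 50 bases after an annotated start, written 5′ to 3′ on the gene's strand. Capitals mark any match on either strand to a motif. The motif AGGTCA is a half-site of vitamin D response elements. The variant AGTTCA is another such half-site. The TATA box was searched as TATAAA. The CCAAT box was searched by those letters. The cAMP response element was searched as TGACGTCA. The direct repeat that the vitamin D receptor binds was searched as a pair of the first half-site with 3 bases of any kind between them, so a hit to it would also be a hit to the half-site.
Slc34a1 promoter, chr13:55399398-55399697, plus strand: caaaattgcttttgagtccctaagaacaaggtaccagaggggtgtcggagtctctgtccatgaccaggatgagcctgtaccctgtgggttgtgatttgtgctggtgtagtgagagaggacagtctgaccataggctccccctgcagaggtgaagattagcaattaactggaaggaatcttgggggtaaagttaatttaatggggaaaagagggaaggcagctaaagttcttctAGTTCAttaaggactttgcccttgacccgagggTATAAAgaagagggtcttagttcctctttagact
Cyp27b1 promoter, chr10:127047996-127048295, plus strand: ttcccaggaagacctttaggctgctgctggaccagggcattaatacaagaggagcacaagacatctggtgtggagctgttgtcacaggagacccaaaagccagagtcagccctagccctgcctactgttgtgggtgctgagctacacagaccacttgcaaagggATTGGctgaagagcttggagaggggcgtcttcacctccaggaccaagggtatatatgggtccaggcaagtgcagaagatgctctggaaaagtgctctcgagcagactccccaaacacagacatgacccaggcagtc
Vdr promoter, chr15:97908247-97908546, minus strand: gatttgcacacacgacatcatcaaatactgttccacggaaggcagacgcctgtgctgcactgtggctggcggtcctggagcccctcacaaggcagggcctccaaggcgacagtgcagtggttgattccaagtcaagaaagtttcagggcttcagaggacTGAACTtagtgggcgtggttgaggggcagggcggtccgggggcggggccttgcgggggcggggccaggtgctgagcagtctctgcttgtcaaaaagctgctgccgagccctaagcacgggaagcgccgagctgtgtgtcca

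The Slc34a1 window held AGTTCA 17 bases before the annotated start and TATAAA 17 bases after it. The Vdr window held AGTTCA on the opposite strand, 91 bases before the start, and the Cyp27b1 window held CCAAT on the opposite strand, 86 bases before the start. These matches are common. The share of all 32851 promoter windows of this length was 14.0% for AGTTCA and 16.3% for the half-site AGGTCA. It was 13.6% for the TATA box and 37.4% for the CCAAT box. The direct repeat was found in 0.00609% and the cAMP response element in 1.79% of all windows, and neither in any of the 11 windows that matched 8 of the 10 genes. Slc20a2 also had no entry. AGGTCA was found in windows of Slc34a3 and Slc20a1. A match describes letters in the window and no bound site. With so low a share over all windows, the exact direct repeat could hardly turn up in 11, and pairs holding AGTTCA were not searched. Its absence therefore does not tell whether these windows hold a site for the vitamin D receptor.

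Slc34a3 encodes NaPi-IIc, the other SLC34 carrier of the proximal brush border. Its 1 probe read 21189 units in TG+STZ and 22748 in WT+STZ, a scaled difference of -0.18 ± 0.20. It was the lowest difference of the group. Of all measured genes, 15.1% were at least as low, and of the 1148 probes within 0.5 log2 units of its signal, 3.83% were.

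Slc20a1 and Slc20a2 encode the widely expressed carriers PiT-1 and PiT-2, of which PiT-2 is also found in the proximal brush border. Slc20a1 read 7000 units in TG+STZ and 6026 in WT+STZ on the probe for its transcript NM_015747, a difference of 0.14 ± 0.20. The probe for its transcript NM_001159593 was dim, at 23.2 units in TG+STZ and 19.1 in WT+STZ, and gave 0.20 ± 0.29. Both probes of Slc20a1 were slightly higher in TG+STZ and within the error. The probes of Slc20a2 read 5845 units in TG+STZ against 4650 in WT+STZ, and 969 in TG+STZ against 825 in WT+STZ. Their differences were 0.25 ± 0.20 and 0.15 ± 0.20, with a gene mean of 0.20 ± 0.14. All 4 SLC20 probes were thus higher in TG+STZ, from 0.14 to 0.25, whereas the 3 SLC34 probes ran from -0.18 to 0.02. Only 1 of these 7 probes, the brighter one of Slc20a2, lay beyond 1 scanner error, and whether the families differ was not tested. Of all measured genes, 10.2% were at least as high as Slc20a2 and 13.0% as high as Slc20a1.

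Slc9a3r1 encodes NHERF1, the PDZ scaffold that holds NaPi-IIa in the brush border. It read 11579 units in TG+STZ and 11764 in WT+STZ, a difference of -0.10 ± 0.20. Pth1r encodes the receptor of parathyroid hormone, which signals through cAMP and phospholipase C. It read 69093 units in TG+STZ and 64916 in WT+STZ, a difference of 0.01 ± 0.20. Kl encodes klotho, the co-receptor that lets FGF receptors bind FGF23. It read 42643 units in TG+STZ and 39278 in WT+STZ, a difference of 0.04 ± 0.20. All 3 genes differed by less than the scanner error.

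Cyp27b1 encodes the mitochondrial enzyme that makes calcitriol. Its probe read 450 units in TG+STZ and 310 in WT+STZ, a difference of 0.46 ± 0.20, or 1.37-fold after scaling. Cyp24a1 encodes the mitochondrial enzyme that starts the breakdown of calcitriol. Its probe read 2961 units in TG+STZ and 2039 in WT+STZ, again 0.46 ± 0.20 and 1.37-fold. The maker and the breaker of the hormone were therefore higher on the same array and by nearly the same amount. Each rests on 1 probe and 1 spot per array. Of all measured genes, 3.005% were at least as high as Cyp27b1 and 2.96% as high as Cyp24a1. Among probes within 0.5 log2 units of their own signal, 2.40% of 2746 probes were as high as Cyp27b1 and 1.66% of 2705 as high as Cyp24a1. Each gene therefore stood in the upper tail of the differences but within the middle 95% of all genes. Among probes of like signal, each lay outside the middle 95%.

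Vdr, the receptor of calcitriol, read 17984 units in TG+STZ and 18214 in WT+STZ, a difference of -0.10 ± 0.20. Counted over probes, 2 of the 13 were higher in TG+STZ by more than 2 scanner errors, those of Cyp27b1 and Cyp24a1, where 3.46% of all 28998 measured probes were. None of the 13 was lower by more than 2 errors, where 3.71% of all probes were. Within 1 error of 0 lay 10 of the 13, beside 77.3% of all probes. This count by scanner error was added after the values were seen.

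**Figure D2:**
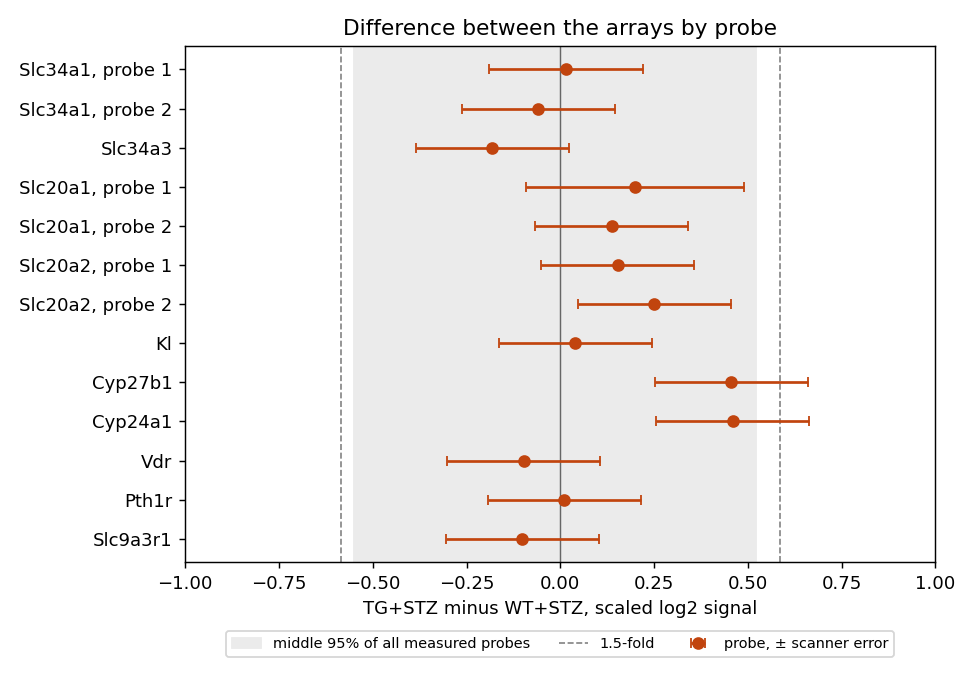
Scaled log2 difference, TG+STZ minus WT+STZ, of each of the 13 probes, with the scanner error of both spots as bars (1 array per group). The grey band holds the middle 95% of all measured probes, and dashed lines mark 1.5-fold in either direction. All 13 points lie inside the band, and those of Cyp27b1 and Cyp24a1, both at 0.46, are furthest from 0.

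**Figure D3:**
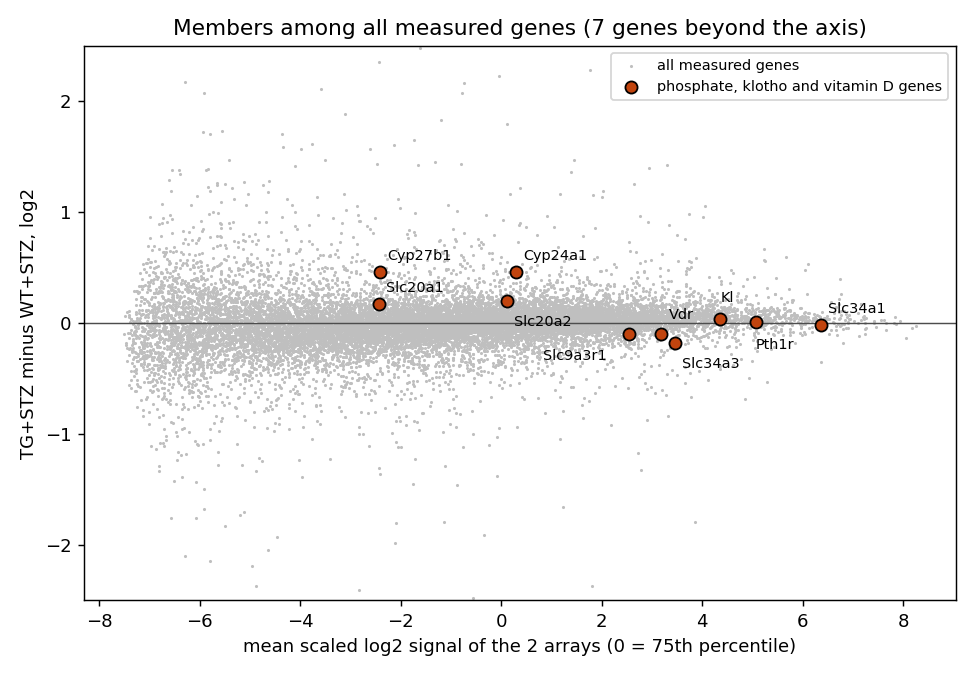
Difference of each measured gene (TG+STZ minus WT+STZ, log2) against its mean scaled log2 signal on both arrays, where 0 is the 75th percentile. Grey points are all 15975 measured genes, of which 7 lie beyond the axis, and the filled circles are the 10 genes of the group. The spread of all genes widens toward low signal, and Cyp27b1 and Cyp24a1 lie above the dense part of the cloud at their signals.

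The scatter of all genes depended on signal, which bears on how each value reads. Probes with signal near that of the first Slc34a1 probe had differences with an SD of 0.13, those near Cyp24a1 0.18, those near Cyp27b1 0.29 and those near the dim Slc20a1 probe 0.40. Spots repeated for 1 probe scattered less. The median SD of their differences was 0.03 over 312 probes with at least 8 spots each, and 0.14 over the 51 such probes below 100 units. None of these figures covers the spread between animals.

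The rest of the pathway was read from 6 lists of 66 genes, of which 61 were measured. TG+STZ was 1.5-fold or more above WT+STZ for 0 of them and 1.5-fold or more below it for 2, beside the 1.75% and 1.91% of all genes. Of the 61, 24 were higher and 37 lower, with a median of -0.03. The 2 genes past 1.5-fold were Stc1 and Shank2, both on dim probes.

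A list of 10 other genes of phosphate and pyrophosphate handling held carriers and exporters, and also the enzyme genes Enpp1 and Alpl. Of these 10 genes, 9 were measured and none was 1.5-fold apart. Their median was -0.02, with 4 higher and 5 lower. Ank, the mouse counterpart of human ANKH, whose protein exports pyrophosphate, was furthest at -0.30 ± 0.20 (489 units in TG+STZ, 569 in WT+STZ). Slc17a3, an organic anion and phosphate carrier of the proximal tubule, stood at 0.24 ± 0.14 (probe means of 55113 units in TG+STZ and 43779 in WT+STZ). Slc17a2 was above background on the TG+STZ array alone, where 1 of its 2 probes read 11.5 units against 10.5 in WT+STZ, a bound of at least 1.03-fold for TG+STZ over WT+STZ.

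Of the 7 scaffold and brush border partners 1 was higher and 6 lower, with a median of -0.08. Shank2, a PDZ scaffold, was at -0.59 ± 0.25 on a dim probe (29.2 units in TG+STZ, 41.4 in WT+STZ). It was the one gene of this list past 1.5-fold. Slc9a3r2, which encodes NHERF2, stood at -0.21 ± 0.14 (2522 units in TG+STZ, 2731 in WT+STZ).

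The FGF23 and klotho list had 13 of 15 genes measured, none 1.5-fold apart, with 6 higher, 7 lower and a median of -0.02. Sfrp4, a secreted Wnt inhibitor that also promotes phosphate loss, was highest at 0.46 ± 0.21 (243 units in TG+STZ, 168 in WT+STZ). Fam20c, the kinase that phosphorylates FGF23 and other secreted proteins, was lowest at -0.41 ± 0.14 (1994 units in TG+STZ, 2438 in WT+STZ). The bone genes Phex and Dmp1 were not above background on either array. Fgf23, a gene of bone cells that was singled out after its values were seen, had probes that disagreed. A_55_P2169514 read 30853 units in TG+STZ and 31790 in WT+STZ (-0.12 ± 0.20), while A_55_P1976655, assigned to the same transcript, was not above background at 2.83 units in TG+STZ and 3.52 in WT+STZ. Which of them reads Fgf23 was not tested.

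Of 11 genes of parathyroid hormone signalling and calcium sensing, 9 were measured, with 4 higher, 5 lower and a median of -0.04. The hormone gene Pth and the receptor gene Pth2r were not above background on either array. The stanniocalcin genes, whose secreted products act on calcium and phosphate transport, lay at the ends of the list. Stc1 was at -1.23 ± 0.33, or 0.426-fold (15.2 units in TG+STZ, 33.8 in WT+STZ), on a dim probe, and was the one gene of this list past 1.5-fold. Stc2 was at 0.46 ± 0.21 (110 units in TG+STZ, 75.4 in WT+STZ).

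All 9 genes of vitamin D uptake and activation were measured, with 5 higher, 4 lower and a median of 0.01. Gc, the vitamin D binding protein of plasma, was highest at 0.31 ± 0.14, and its probes agreed at 0.31 and 0.32 (means of 5370 units in TG+STZ and 4075 in WT+STZ). Cyp27a1, a mitochondrial sterol hydroxylase that can also act on vitamin D, was lowest at -0.27 ± 0.20 (495 units in TG+STZ, 567 in WT+STZ). The partners and targets of the vitamin D receptor had 14 of 14 genes measured, with 4 higher, 10 lower and a median of -0.03. Trpv5, the calcium channel of the distal tubule, was lowest at -0.39 ± 0.21 (200.5 units in TG+STZ, 248.8 in WT+STZ). Slc8a1, the sodium-calcium exchanger, followed at -0.29 ± 0.16, with probes at -0.61 and 0.03. The calcitriol-induced calcium-binding genes Calb1 and S100g, named after their values were seen, stood at -0.15 ± 0.20 and -0.00 ± 0.14. Calb1 and Trpv5 are also in the list of distal convoluted tubule markers, which were lower in TG+STZ.

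**Figure D4:**
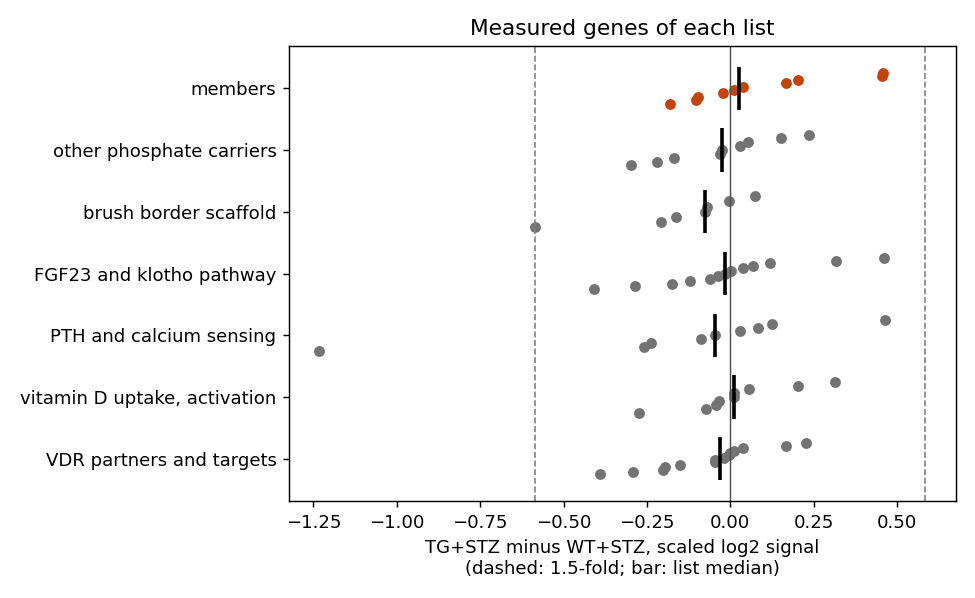
Scaled log2 difference, TG+STZ minus WT+STZ, of each measured gene in the group (top row) and in 6 further lists, with 1 point per gene and a bar at each list's median. Dashed lines mark 1.5-fold. List medians lie between -0.08 and 0.03, and the points beyond the dashed lines are Stc1 at -1.23 and Shank2 at -0.59.

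The tissue was dissected as glomerular regions, and 11 lists of cell type markers describe what it held. In such bulk RNA, fewer cells of a type and less RNA per cell cannot be told apart. All 12 proximal tubule markers were measured, with unscaled signals summing to 1229471 units in TG+STZ and 1210117 in WT+STZ, 4 higher and 8 lower in TG+STZ, a median of -0.04 and the furthest at -0.56 (Slc22a8) and -0.43 (Cyp7b1). Such sums add probes of unequal efficiency and follow the brightest ones, while the counts and medians are of scaled differences. The Slc34a1, Slc34a3, Cyp27b1 and Cyp24a1 values were thus read in RNA that held proximal tubule transcripts on both arrays. All 6 markers of the distal convoluted tubule, where klotho is abundant, were lower, with a median of -0.18, a sum of 16357 units in TG+STZ and 17373 in WT+STZ, and the furthest at -0.39 (Trpv5) and -0.31 (Emx1). The other lists of kidney cells had medians of -0.11 (6 loop of Henle markers), -0.30 (7 collecting duct), -0.10 (8 podocyte), -0.10 (7 glomerular endothelial), -0.11 (7 mesangial and smooth muscle) and -0.24 (6 parietal epithelial). The furthest were Cldn19 at -0.28 and Kcnj1 at -0.21 of the loop, Slc26a4 at -0.63 and Atp6v1g3 at -0.44 of the collecting duct, and Nphs1 at -0.89 of podocytes. In the remaining lists they were Plat at -0.30 and Flt1 at -0.14 (endothelium), Acta2 at -0.35 and Serpine2 at -0.34 (mesangium), and Prom1 at -0.41 and Akap12 at -0.31 (parietal epithelium). Every marker of these lists was above background on both arrays, those of podocytes and glomerular endothelium included.

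The remaining lists mark fibroblasts, fat cells and leukocytes. All 6 fibroblast markers were higher in TG+STZ, with a median of 0.58, a sum of 3981 units in TG+STZ and 2997 in WT+STZ, and the furthest at 1.096 (Clec3b) and 0.61 (Igfbp6). Of 6 fat cell markers, Cfd and Cidec were measured on both arrays, at 4.82 and 1.28, summing to 1352 units in TG+STZ and 84.7 in WT+STZ. Adipoq, Plin1 and Ucp1 were above background in TG+STZ alone, and Lep on neither array. Of 7 leukocyte markers 6 were measured and all 6 were lower, with a median of -0.65, a sum of 1929 units in TG+STZ and 2291 in WT+STZ, and the furthest at -0.79 (Ms4a1) and -0.76 (S100a9). The part of these cells in the Cyp27b1, Cyp24a1, Slc20a1 and Slc20a2 values was not tested.

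The order of the 10 genes by difference was Cyp24a1, Cyp27b1, Slc20a2, Slc20a1, Kl, Pth1r, Slc34a1, Vdr, Slc9a3r1 and Slc34a3. Neighbours in this order stood closer together than their combined scanner errors, except Cyp27b1 and Slc20a2, whose gap of 0.25 was about as large as their combined error of 0.25. With 2 arrays, no likeness of pattern across samples was computed. The genes nearest 0 had no settled sign. Slc34a1 ran from -0.07 to 0.06 over 11 other settings, Kl from -0.01 to 0.12 and Pth1r from -0.03 to 0.09. Cyp24a1 kept to 0.43 to 0.54, Cyp27b1 to 0.39 to 0.54 and Slc20a2 to 0.18 to 0.28. Slc20a1 stayed above 0 at 0.04 to 0.25, and Slc34a3, Vdr and Slc9a3r1 stayed below it.

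**Figure D5:**
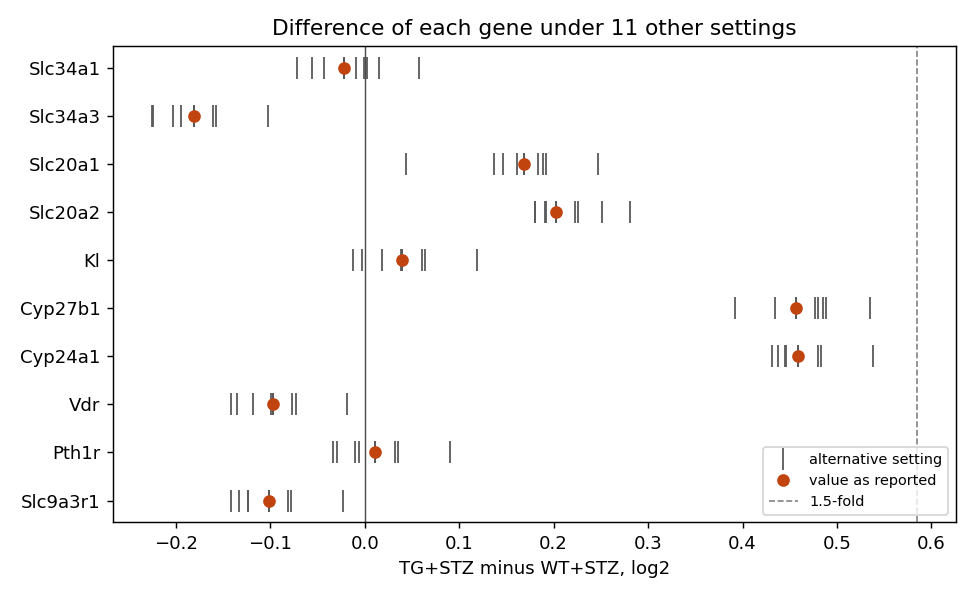
Scaled log2 difference, TG+STZ minus WT+STZ, of each of the 10 genes as reported (circles) and under 11 alternative settings (ticks); the dashed line marks 1.5-fold. No tick of Cyp27b1 or Cyp24a1 reaches 1.5-fold or 0, and the ticks of Slc34a1, Kl and Pth1r lie on both sides of 0.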

How the data were processed

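The deposited scanner tables hold, per spot, a processed signal and its error, as intensity on a linear scale, and detection flags (0 or 1, unit other). Per the file headers, the authors' software was Agilent Feature Extraction 10.7.1.1, with mm9 named as the build of the array design, while version 10.3.1.1 stands in the submitters' processing notes. Its signal is corrected for background and for trends across the array. The deposited value table held the same intensity at all 44397 spots. Positions of genes are not given, since the tables carry none.

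Each processed intensity was put on the log2 scale, less the log2 of its array's 75th percentile over non-control spots. Spots marked as outliers (109 in TG+STZ, 114 in WT+STZ) were left out, spots of 1 probe were averaged, and probes well above background and unsaturated on both arrays were averaged by gene. Probes were named by RefSeq accession through a gene table of GRCm38.p6. Of 39426 probes left, 26410 matched a symbol and 13016 did not. The error of a probe combines the software's errors of its spots, and averaging over probes reduces it. For a gene detected on 1 array, the bound sets its signal against the higher of the dim signal and the lowest signal well above background.

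With 1 array per group, no test was computed, and the number of arrays limits the precision. The members and lists were chosen with earlier results of these data known. Named were all members, the 2 furthest genes of each list and every pathway gene past 1.5-fold, with exceptions marked. Alternatives were normexp (offset 50, on spot medians), median centring, the percentile over detected probes, quantile normalization, loess (span 0.3), E1A spike-ins, no scaling, outlier spots kept, no filter, a laxer detection flag and the brightest probe. The steps were tested on simulated data, made from the WT+STZ array with known shifts put in. Such a test checks the computation and not the precision of the differences reported here. Tools were limma 3.58.1 in R 4.3.3 and, in Python 3.11.15, pandas 2.3.3, numpy 2.4.6, matplotlib 3.10.9 and statsmodels 0.14.6.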

Additional observations from a re-analysis of the deposited data

How the results depend on the processing

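Over the 11 alternative settings, the count of genes at least 1.5-fold apart stayed at 0 of 10, and so did the count at 2-fold. The settings are not separate checks. Keeping outlier spots, dropping the filter and the laxer detection flag left every value of the group unchanged, since its probes already passed. Median centring, the percentile over detected probes, spike-ins and no scaling shift all genes by the same amount. No gene of the group moved by more than its scanner error. The median over the 10 genes ran from -0.02 under quantile normalization to 0.10 with no scaling. Slc34a1 was above 0 in 3 settings (median centring, no scaling and the brightest probe), Kl in 9 (all but quantile normalization and loess) and Pth1r in 7 (not in those, normexp or the percentile over detected probes). Relative to the median of all genes, Slc34a1 was higher in 2 settings (normexp and the brightest probe), and Kl and Pth1r in 9 each. Normexp correction, whose offset draws dim probes toward 0, brought Slc20a1 to 0.04. The median of all genes moved by at most 0.08, with no scaling, and relative to it Cyp27b1 lay between 0.44 and 0.49 and Cyp24a1 between 0.44 and 0.48. The share of all genes at least 1.5-fold higher and lower was 0.682% and 0.939% under normexp, 2.37% and 1.39% with no scaling, 3.70% and 4.24% with no filter on dim probes and 3.28% and 3.82% with the laxer detection flag. No paired analysis was possible because each group has 1 array. For the same reason no array could be left out. Low signal limits the values of the dim Slc20a1 probe and of Stc1 and Shank2, where the scanner error was 0.29, 0.33 and 0.25.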
